A study of Mus musculus with 6 samples.

Results

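The genes described here are the enzymes that add acetyl groups to histones and other proteins, the enzymes that remove them, and the corepressor, Polycomb and ubiquitin ligase subunits that work beside them. The 39 genes were listed by name as partners or modifiers of PLZF or as relatives of such partners. A gene counted as measured where an array row carried its symbol and no other, and of several rows for a gene the brightest, by its mean of all 6 arrays, was used. Of the 39 genes 38 were measured, among 22180 genes measured in all. Ncor1, the nuclear receptor corepressor, matched no row by symbol and has no value here.

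PLZF, encoded by Zbtb16, is the zinc finger transcription factor that gives invariant natural killer T (iNKT) cells their innate-like program. Its BTB domain recruits corepressors that carry histone deacetylases, and PLZF is itself acetylated by the coactivator encoded by Ep300, so that acetyltransferases and deacetylases act both on chromatin and on PLZF. In iNKT cells PLZF is also known to bind Cul3, the scaffold of a ubiquitin ligase, and Hdac7, and to be methylated by Ezh2.

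PLZF_ON mice were compared with WT mice on whole-transcript arrays made from total RNA. The WT group (3 arrays) came from the wild-type controls, and the PLZF_ON group (3 arrays) from mice whose PLZF is present in a form that is always acetylated. All samples are labelled as iNKT cells. Replicates 1 and 2 of each group are the 4 arrays that the study's design names as analysed, and replicate 3 of each was deposited with them. The sources used here do not give strain, age, organ, cell isolation, the promoter that drives the PLZF_ON allele or any pooling of animals. The labels do not say whether each replicate is its own animal, and the p-values then cover only the scatter of these samples, part of which may be technical.

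The array of PLZF_ON replicate 3 stood apart from the other 5. Its correlations with them lay between 0.895 and 0.898 across all rows, while the others correlated with each other at 0.957 to 0.973. T cell markers were present on every array. Of the 15 measured, 15 were above the receptor level in WT and 14 on PLZF_ON replicate 3. The receptor level is log2 5.20. Below it lie 95% of the rows of odorant and pheromone receptor genes, a class not expected in T cells. Markers of several other cell types were higher on PLZF_ON replicate 3, to unlike degrees. Of 13 myeloid markers 11 had their highest value there, and their summed level on the linear scale was 692, against 333 to 341 in WT and 319 to 336 in PLZF_ON replicates 1 and 2. Of the 13, 6 were above the receptor level on that array. Both CD8 T cell markers were highest there too, with a summed level of 312 against 60 to 73 and 55 to 80. Of 9 epithelial and hepatocyte markers 8 were highest there, of 3 erythroid markers 3 and of 9 B cell markers 6. Only 1 erythroid and 1 B cell marker were above the receptor level there. Of 6 dendritic cell markers 2 were highest there. The median over all rows was also higher on that array, at 5.01 against 4.88 to 4.92. By their WT means, 2 of the 13 myeloid and 2 of the 9 epithelial and hepatocyte markers were above the receptor level. Of the erythroid and B cell markers 0 were. The share of all rows with their highest value on that array was not taken. The counts of markers highest there are thus not read as a result about other cell types. The summed level of the T cell markers was 11043 on that array, against 15249 to 17762 in WT and 16003 to 17276 in the other PLZF_ON arrays. Single T cell markers still differed between the genotypes over 4 arrays, by up to 2.19 log2 units. Of the 15, 8 had an unadjusted limma p under 0.05, beside 9.41% of all rows and 14.5% of rows above the receptor level. Of these markers 0 passed the adjusted threshold. In such bulk samples fewer cells of a type and less RNA per cell cannot be told apart. Counts over the members are therefore given with and without PLZF_ON replicate 3. Differences of single genes are given over the 4 arrays, and only for some of them also with that array.

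Zbtb16 itself had log2 levels of 9.96, 10.19 and 9.82 in WT replicates 1 to 3 and of 10.48, 10.68 and 9.54 in PLZF_ON replicates 1 to 3. PLZF_ON replicates 1 and 2 lay above all WT arrays and replicate 3 below them.

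The comparison of PLZF_ON with WT asked whether iNKT cells with constantly acetylated PLZF differ in the mRNA of the acetylation and corepressor machinery. Over the 4 arrays the members lay on both sides of WT, 20 higher and 18 lower, with a median difference of 0.009 on the log2 scale (-0.003 over all tested rows). The median size of the difference was 0.176, beside 0.128 for all rows and 0.157 for rows above the receptor level. The groups did not overlap on these 4 arrays for 55.3% of members, 38.2% of all rows and 43.3% of rows above the receptor level. Ezh2, the catalytic subunit of PRC2, had the largest difference, 0.54 higher, but 0.29 without WT replicate 1 and 0.28 without PLZF_ON replicate 2, so its place depends on single arrays. The members nearest to a call were Rcor1, the scaffold of the CoREST corepressor (0.46 higher), and Hdac7, a class IIa deacetylase (0.46 lower). None of the 38 passed limma at an adjusted p of 0.05 over all rows (smallest adjusted p = 0.315), while 0.17% of 23521 rows did.

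An unadjusted limma p under 0.05 was reached by 5 of 38 members over the 4 arrays, namely Rcor1 (higher) and Hdac7, Cul3, Kat7 and Sirt1 (lower). That is 13.2% of the members, beside 9.41% of all tested rows and 14.5% of the 11119 rows above the receptor level, where 37 of the 38 members lie. The share is thus no result about the members as a group. The count was 2 without WT replicate 1, and 3 without WT replicate 2 or PLZF_ON replicate 2. Over all 6 arrays it was 3 of 38 (Rcor1, Hdac7 and Cul3), beside 5.77% of all rows and 9.34% of rows above the receptor level. That count was 1 without WT replicate 1 or WT replicate 2, and 5 without PLZF_ON replicate 2. No member passed the adjusted threshold over 6 arrays (smallest limma adjusted p = 0.603), while 0.0935% of rows did. Without PLZF_ON replicate 3, with 3 WT and 2 PLZF_ON arrays, 6 of 38 members had an unadjusted limma p under 0.05, beside 9.7% of all rows, and none passed the adjusted threshold. The 6 were Rcor1, Ezh2 and Hdac3 (higher) and Sirt1, Hdac7 and Cul3 (lower). The share among rows above the receptor level was not taken for these arrays, so this count is not read as a result about the members as a group.

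The arrays set the size of difference that could be seen. The 95% interval of a member's difference over 4 arrays reached 0.35 log2 units to each side at the median, or 1.27-fold, and from 0.31 to 0.58 over the members. A difference smaller than the reach of its own interval did not come to an unadjusted limma p under 0.05. Larger ones could miss the adjusted threshold too, as Rcor1 did at 0.46 (limma adjusted p = 0.315). Sap30, a related gene described below, missed it at 1.45 over 4 arrays (limma adjusted p = 0.101). A missed threshold does not show equal levels.

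**Figure D1:**
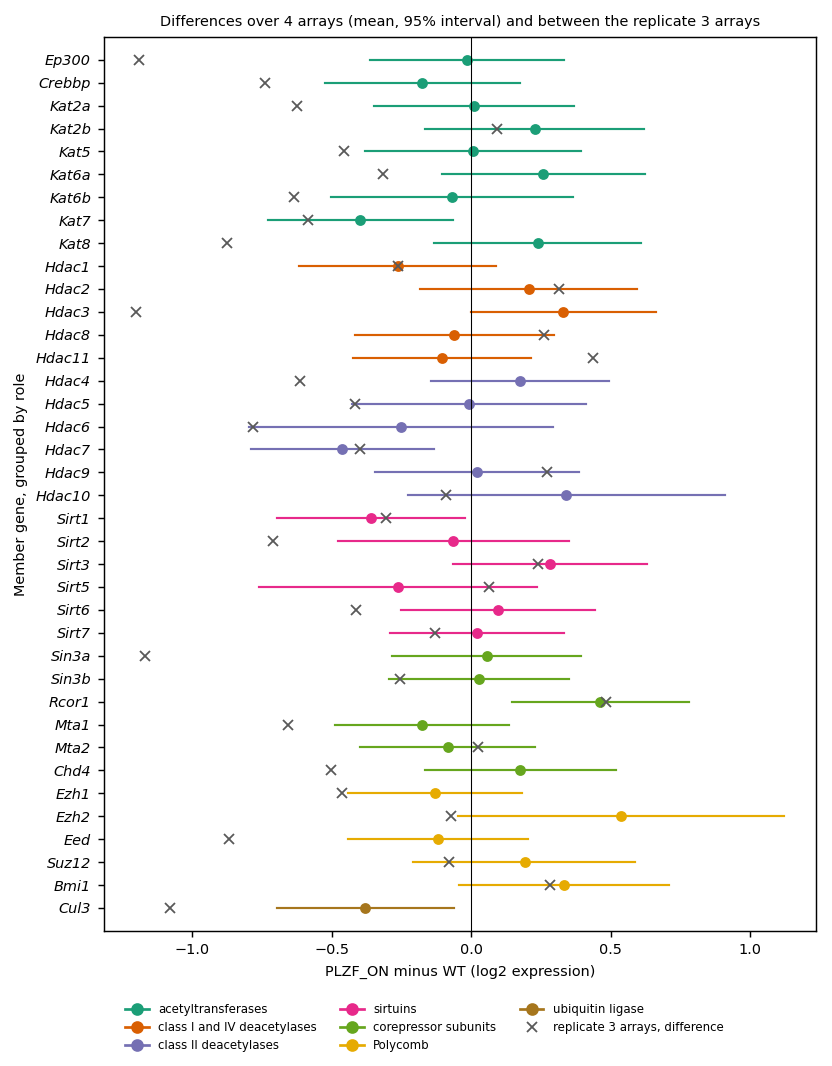
Difference between PLZF_ON and WT for each of the 38 measured members on the log2 scale (x axis), grouped by role (y axis). Circles with lines are the 4-array difference and its 95% interval, and crosses are the difference between the 2 replicate 3 arrays; 5 intervals leave out 0, and Rcor1 is the one that does so on the higher side.

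Over the 6 arrays the groups did not overlap for 6 of 38 members (15.8%), beside 11.8% of all rows and 15.5% of rows above the receptor level. PLZF_ON was the lower group for 4 members, Cul3, Hdac7, Sirt1 and Crebbp, as it was for 6.22% of all rows, and the higher group for 2, Rcor1 and Sirt3, as for 5.55% of all rows. These 6 genes and their values are given by role in the paragraphs on each family.

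For 4 of the 6 the RefSeq table holds a single start site, and the promoter window of each is shown so that the regulatory sequence of the genes that kept apart on every array can be read beside their values. Each window runs from 250 bases before the start to 50 after it, on mouse build GRCm38.p6. They lie at chr12:111039117-111039416, plus strand (Rcor1), chr1:80340641-80340940, minus strand (Cul3), chr10:63338986-63339285, minus strand (Sirt1) and chr16:4213355-4213654, minus strand (Crebbp). Capitals mark the GC box, GGGCGG or its reverse complement, searched on both strands. The sequences read 5′ to 3′ along the gene.
Rcor1: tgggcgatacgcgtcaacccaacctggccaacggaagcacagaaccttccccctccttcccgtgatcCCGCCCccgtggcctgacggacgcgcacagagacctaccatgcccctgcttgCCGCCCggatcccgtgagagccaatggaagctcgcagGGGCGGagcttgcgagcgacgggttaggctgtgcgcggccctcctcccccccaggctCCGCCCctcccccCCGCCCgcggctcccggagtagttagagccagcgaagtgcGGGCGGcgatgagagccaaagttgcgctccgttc
Cul3: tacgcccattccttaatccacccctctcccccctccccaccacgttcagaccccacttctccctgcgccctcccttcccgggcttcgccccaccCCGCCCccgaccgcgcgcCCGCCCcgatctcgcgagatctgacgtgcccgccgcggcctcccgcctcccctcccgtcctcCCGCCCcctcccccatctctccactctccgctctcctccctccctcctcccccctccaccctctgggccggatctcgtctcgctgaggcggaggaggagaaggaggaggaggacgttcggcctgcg
Sirt1: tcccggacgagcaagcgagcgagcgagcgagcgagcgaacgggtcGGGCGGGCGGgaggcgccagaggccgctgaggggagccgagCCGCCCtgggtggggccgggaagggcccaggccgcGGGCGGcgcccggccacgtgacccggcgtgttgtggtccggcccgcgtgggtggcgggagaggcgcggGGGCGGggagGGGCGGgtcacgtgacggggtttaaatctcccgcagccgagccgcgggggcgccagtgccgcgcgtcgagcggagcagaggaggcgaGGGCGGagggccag
Crebbp: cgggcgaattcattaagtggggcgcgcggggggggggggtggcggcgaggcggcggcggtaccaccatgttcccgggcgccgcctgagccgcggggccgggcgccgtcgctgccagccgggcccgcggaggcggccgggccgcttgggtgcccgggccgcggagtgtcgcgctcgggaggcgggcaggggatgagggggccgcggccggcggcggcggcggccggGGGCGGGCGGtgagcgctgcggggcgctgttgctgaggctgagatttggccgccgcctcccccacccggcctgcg

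Rcor1 held 6 GC boxes, Cul3 3, Sirt1 7 and Crebbp 2, where overlapping matches count separately. None of the 4 windows held TATAAA or the ETS core CCGGAA, and CCAAT occurred once, in Rcor1. Of the 38 measured members 34 were matched by symbol to 46 windows, and 65.2% of these held a GC box, against 35.7% of all 32851 windows. CCGGAA was found in 21.7% of the members' windows and 14.9% of all, CCAAT in 45.7% and 37.4%, and TATAAA in 6.52% and 13.6%, each on either strand. The members' windows had a median of 21.5 CpG dinucleotides, against 7 over all windows. The GC box was found in the window of the gene that was higher and in those of the 3 that were lower. A match describes letters in the window and not a bound site. The 32851 windows were not limited to genes expressed here, as nearly all members are. Without such a set, the shares and CpG counts are not read as traits of this gene family.

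Among the acetyltransferases the paralogous coactivators Ep300 and Crebbp come first, since Ep300 is known to acetylate PLZF. Ep300 had log2 levels of 9.05, 8.94 and 9.22 in WT and of 8.88, 9.07 and 8.03 in PLZF_ON. The first 2 PLZF_ON arrays lay inside or just below the WT range, and replicate 3 was the lowest. The 4-array difference was -0.02 (95% interval -0.36 to 0.33, limma adjusted p = 0.989). Over 6 arrays it was -0.41 (limma adjusted p = 0.941), but -0.61 without PLZF_ON replicate 2 and -0.09 without PLZF_ON replicate 3. Crebbp was at 9.99, 9.97 and 10.11 in WT and at 9.69, 9.92 and 9.37 in PLZF_ON. Every PLZF_ON array was below every WT array, although PLZF_ON replicate 2 missed the lowest WT array by 0.05 only. The difference was -0.18 over 4 arrays (SE 0.14, limma adjusted p = 0.816) and -0.36 over 6 (SE 0.18, limma adjusted p = 0.92). The 4-array value was -0.06 without PLZF_ON replicate 1 and -0.29 without PLZF_ON replicate 2, and the 6-array value -0.22 without PLZF_ON replicate 3.

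Kat7, the HBO1 acetyltransferase of the MYST family, was at 7.63, 7.77 and 7.28 in WT and at 7.34, 7.26 and 6.69 in PLZF_ON. Replicates 1 and 2 were apart by group, but WT replicate 3 lay below PLZF_ON replicate 1, so the groups overlapped over 6 arrays. The 4-array difference was -0.40 (SE 0.14, unadjusted p = 0.0259, limma adjusted p = 0.428). The other MYST enzymes were Kat5 (0.01), Kat6a (0.26), Kat6b (-0.07) and Kat8, the MOF enzyme of the MSL and NSL complexes (0.24), all as 4-array differences and none with an unadjusted p under 0.05. Kat2a and Kat2b, the alternative catalytic subunits of the SAGA and ATAC complexes, differed by 0.01 and 0.23. On PLZF_ON replicate 3, 8 of the 9 acetyltransferases had their lowest value, all but Kat2b.

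The class I deacetylases are the catalytic subunits of the large corepressor complexes, Hdac1 and Hdac2 in Sin3, NuRD and CoREST and Hdac3 with the NCoR and SMRT proteins. Hdac3 was at 7.19, 7.03 and 7.05 in WT and at 7.46, 7.42 and 5.85 in PLZF_ON. The first 2 PLZF_ON arrays lay above all WT arrays, and replicate 3 lay more than 1 log2 unit below them. The difference was 0.33 over 4 arrays (SE 0.14, limma adjusted p = 0.532) and -0.18 over 6 (SE 0.41, limma adjusted p = 0.961), so its sign turned with that array. Hdac1 stood lower on both replicate 3 arrays, at 8.36 in WT and 8.10 in PLZF_ON, against 9.58 and 9.44 in WT and 9.35 and 9.14 in PLZF_ON on replicates 1 and 2. Its spread between replicate numbers thus exceeded the group difference, which was -0.26 over 4 arrays (SE 0.15) and over 6 (SE 0.41). Without PLZF_ON replicate 3 the Hdac1 difference was 0.12 (SE 0.35), so its sign turned as well. Hdac2 differed by 0.21 and Hdac8 by -0.06 over 4 arrays. Hdac11, the class IV enzyme, differed by -0.11, and its second row by 0.04; neither had an unadjusted p under 0.05.

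Class IIa deacetylases (Hdac4, Hdac5, Hdac7 and Hdac9) shuttle between nucleus and cytoplasm when phosphorylated and bridge transcription factors to Hdac3 complexes. Hdac7, the class IIa enzyme known for its part in thymocytes and iNKT cells, was at 7.49, 7.34 and 7.18 in WT and at 6.95, 6.96 and 6.79 in PLZF_ON. All PLZF_ON arrays lay below all WT arrays. The difference was -0.46 over 4 arrays, or 1.38-fold (SE 0.13, unadjusted p = 0.0133, limma adjusted p = 0.34), and -0.44 over 6 (SE 0.16, unadjusted p = 0.0223, limma adjusted p = 0.713). Without PLZF_ON replicate 3 it was -0.39 (limma adjusted p = 0.406). Hdac4 differed by 0.18 and Hdac5 by -0.01 over 4 arrays. Hdac9 ranged from 4.05 to 4.34 over the 6 arrays and was the member whose mean lay below the receptor level, so no difference can be read from it. The class IIb enzymes Hdac6, the tubulin deacetylase, and Hdac10, which acts on polyamines, differed by -0.25 (SE 0.22) and 0.34 (SE 0.23). Hdac10 lay close to the receptor level, at 5.26, 4.98 and 5.51 in WT and at 5.15, 5.77 and 5.42 in PLZF_ON. Only PLZF_ON replicate 2 was outside its WT range. Hdac6 was uneven within PLZF_ON, at 5.05, 5.69 and 5.05 in replicates 1 to 3, against 5.59, 5.65 and 5.84 in WT.

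Sirtuins use NAD as cosubstrate and fall by location into nuclear (Sirt1, Sirt6), nucleolar (Sirt7), cytoplasmic (Sirt2) and mitochondrial enzymes (Sirt3, Sirt5). Sirt1 was at 7.03, 7.21 and 7.22 in WT and at 6.75, 6.77 and 6.91 in PLZF_ON. PLZF_ON was the lower group on every array, PLZF_ON replicate 3 included, by a gap of 0.11 between the nearest arrays. The difference was -0.36 over 4 arrays (SE 0.14, unadjusted p = 0.0401, limma adjusted p = 0.492) and -0.34 over 6 (SE 0.15, unadjusted p = 0.0506, limma adjusted p = 0.864). Sirt3 was at 5.21, 5.24 and 5.33 in WT and at 5.40, 5.62 and 5.57 in PLZF_ON. Every PLZF_ON array was higher, but its mean lay little above the receptor level and the difference of 0.28 over 4 arrays did not pass (SE 0.14, limma adjusted p = 0.65) and was 0.17 without PLZF_ON replicate 2. Sirt7 was the steadiest member, between 7.08 and 7.26 on all 6 arrays. Sirt2, Sirt5 and Sirt6 differed by -0.06, -0.26 and 0.10 over 4 arrays, none with an unadjusted p under 0.05.

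Among the corepressor subunits, Rcor1 had the largest difference over 4 arrays. Rcor1, which holds the demethylase Kdm1a together with Hdac1 and Hdac2 in CoREST, was at 8.03, 8.11 and 7.89 in WT and at 8.50, 8.56 and 8.38 in PLZF_ON. All PLZF_ON arrays lay above all WT arrays, with 0.27 between the nearest of them. The difference was 0.46 over 4 arrays, or 1.38-fold (SE 0.13, unadjusted p = 0.0117, limma adjusted p = 0.315), 0.47 over 6 (SE 0.15, unadjusted p = 0.0135, limma adjusted p = 0.603) and 0.52 without PLZF_ON replicate 3 (limma adjusted p = 0.193). Between the replicate 3 arrays alone it was 0.48. Rcor1 was thus the member with the smallest adjusted p in each of the 3 comparisons, and it passed in none.

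Sin3a and Sin3b, the paired scaffolds of the Sin3 complexes, differed by 0.06 and 0.03 over 4 arrays. Sin3a was level at 8.10 to 8.30 on 5 arrays and at 6.93 on PLZF_ON replicate 3. The NuRD subunits Mta1 and Mta2 differed by -0.18 and -0.08, and Chd4, the NuRD remodelling ATPase, by 0.18 (95% interval -0.17 to 0.52). None of these 5 had an unadjusted limma p under 0.05 over 4 or 6 arrays.

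**Figure D2:**
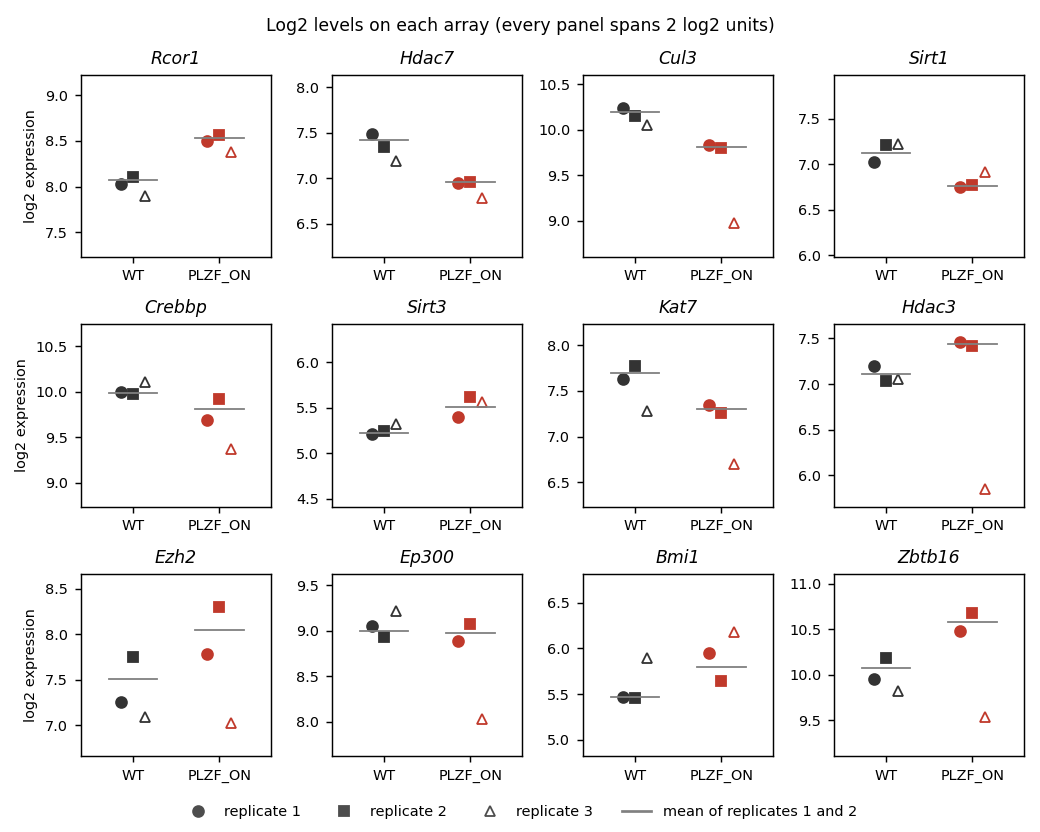
Log2 level on each array (y axis, 2 log2 units in every panel) of 11 members and Zbtb16 in WT and PLZF_ON, with replicate 3 as open triangles and the mean of replicates 1 and 2 as a line. The groups are apart on all 6 arrays for Rcor1, Hdac7, Cul3, Sirt1, Crebbp and Sirt3. The PLZF_ON replicate 3 array lies below every other for Hdac7, Cul3, Crebbp, Kat7, Hdac3, Ezh2, Ep300 and Zbtb16.

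The Polycomb members belong to PRC2, which methylates histones through Ezh2 or Ezh1 with the core subunits Eed and Suz12, and to PRC1, which holds Bmi1. Ezh2 was at 7.26, 7.75 and 7.10 in WT and at 7.79, 8.30 and 7.02 in PLZF_ON. PLZF_ON replicates 1 and 2 lay above all WT arrays and replicate 3 below them. The 4-array difference was 0.54, or 1.45-fold (SE 0.24, 95% interval -0.05 to 1.12, limma adjusted p = 0.582), and the 6-array difference 0.33 (SE 0.33, limma adjusted p = 0.941). With 1 array left out the 4-array difference ran from 0.28 (without PLZF_ON replicate 2; 0.29 without WT replicate 1) to 0.79 (without PLZF_ON replicate 1). The 6-array difference was 0.04 without PLZF_ON replicate 2, 0.20 without WT replicate 3, 0.53 without WT replicate 2 and 0.67 without PLZF_ON replicate 3. Ezh2 is known as a gene of dividing cells, and the cell cycle genes varied between these arrays too. Their median log2 level, over 33 of 34 listed genes, was 5.98, 7.08 and 5.99 in WT and 6.74, 7.63 and 5.92 in PLZF_ON. Both Ezh2 and the cell cycle median were highest on PLZF_ON replicate 2 and lowest on PLZF_ON replicate 3, and the part of cell division in the Ezh2 values was not tested.

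Ezh1, the PRC2 catalytic subunit of resting cells, differed by -0.13 over 4 arrays, Eed by -0.12 and Suz12 by 0.19. Bmi1, a PRC1 RING finger protein that PLZF is known to bind, was at 5.47, 5.46 and 5.90 in WT and at 5.95, 5.64 and 6.18 in PLZF_ON. WT replicate 3 lay inside the PLZF_ON range, and the 4-array difference was 0.33 (SE 0.15, limma adjusted p = 0.602), but 0.18 without PLZF_ON replicate 1.

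Cul3, which joins BTB proteins to the ubiquitin machinery, was at 10.24, 10.15 and 10.05 in WT and at 9.83, 9.79 and 8.97 in PLZF_ON. PLZF_ON was lower on every array, and replicate 3 lay 0.82 below the next array. The difference was -0.38 over 4 arrays, or 1.30-fold (SE 0.13, unadjusted p = 0.0265, limma adjusted p = 0.431), -0.61 over 6 (SE 0.25, unadjusted p = 0.0378, limma adjusted p = 0.81) and -0.33 without PLZF_ON replicate 3 (limma adjusted p = 0.437).

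The members' values on PLZF_ON replicate 3 differed from those on its fellow arrays. Of the 38 members 25 (65.8%) had their lowest value there, beside 27.1% of all tested rows and 50.1% of rows above the receptor level. The median difference between the replicate 3 arrays was -0.41 for the members, 0.07 for all rows and -0.24 for rows above the receptor level. It exceeded 1 in size for 4 members, Hdac3, Ep300, Sin3a and Cul3, all lower. Hdac9, Hdac11 and Bmi1 had their highest value there. Of the 38 members 10 were higher over 4 arrays but lower over 6, among them Kat8, Hdac4 and Chd4. The median member difference was -0.14 over 6 arrays, where 12 members were higher and 26 lower, with -0.03 after renewed quantile normalization and 0.01 with array weights, and it was 0.05 without this array, where 22 were higher. The parts of the other cell types' markers and of the array's narrower spread of values (SD 1.79, against 1.97 to 2.01) in these lower levels were not tested.

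**Figure D3:**
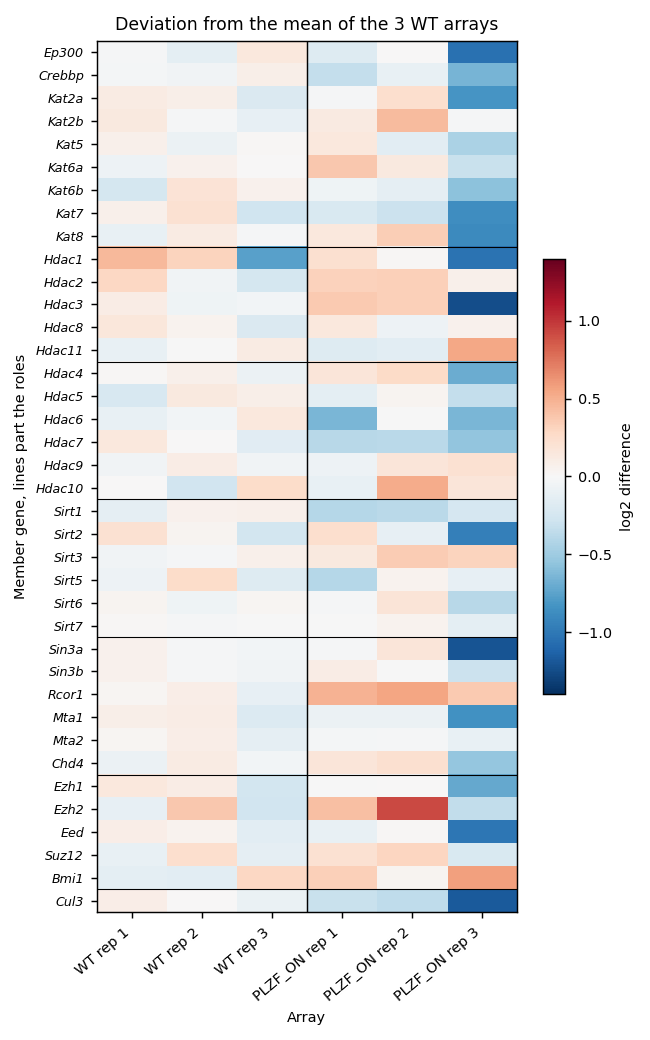
Deviation of each of the 38 members (rows, grouped by role) from the mean of the 3 WT arrays, on each of the 6 arrays (columns), as a colour scale in log2 units. PLZF_ON replicate 3 is the lowest array for 25 members, and the row of Rcor1 is above WT on all 3 PLZF_ON arrays.

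Other genes of the same pathways were taken from lists. The background over 4 arrays was 9.41% of all rows with an unadjusted limma p under 0.05. It was 14.5% of rows above the receptor level, where most of the listed genes lie. None of the 185 measured genes of the 6 related lists passed the adjusted threshold over 4 or over 6 arrays, and 24 had an unadjusted limma p under 0.05 over 4 arrays. The share per list ran from 5.26% to 20%. Of 35 measured subunits of NCoR, Sin3, NuRD and CoREST 3 were higher and 4 lower at that level, or 20%. Sap30, a subunit of the Sin3 deacetylase complex, differed most of these 185 genes. Its log2 level was 7.66, 7.02 and 6.70 in WT and 8.82, 8.76 and 6.43 in PLZF_ON, so that the first 2 PLZF_ON arrays lay above all others and replicate 3 below them. The 4-array difference was 1.45 (SE 0.22, limma adjusted p = 0.101), and over 6 arrays it was 0.88 (SE 0.61, limma adjusted p = 0.941). The CoREST subunits Phf21a, which binds unmethylated histone tails, and Zmym3 differed by -0.54 and 0.39, and the NuRD subunit Mta3 by -0.48. These 3, chosen for their small p, kept their groups apart on all 6 arrays. So did 20% of the 35 genes of this list, 11.8% of all rows and 15.5% of rows above the receptor level.

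Of 44 measured genes on the list of acetyltransferase complex subunits, which also holds the mitochondrial sirtuin Sirt4, 4 were higher and 1 lower at that level, the lower one being Jade2, a scaffold of the Kat7 complex (-0.69, SE 0.16, limma adjusted p = 0.233). Supt7l (0.52), Msl3 (0.34) and Yeats4 (0.34) were among the higher. Over 6 arrays these 3 differed by 0.355, 0.10 and 0.26, and the readers Mllt3 and Zmynd8, named next, by 0.06 and 0. Of 25 proteins that read acetyl-lysine 2 were higher, Mllt3 (0.36) and Zmynd8 (0.31), and 0 lower, while the nearest others were Atad2 (0.48, SE 0.27) and Brd7 (0.23, SE 0.14). Of 28 further Polycomb genes Cbx2 (0.46) and the PRC2 cofactor Jarid2 (0.53) were higher, and Pcgf2 (-0.56) and Phf1 (-0.46) lower.

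Of 34 partners of Cul3 2 were higher and 3 lower, among them Klhl2 (0.63, limma adjusted p = 0.181), Enc1 (-0.59) and Btbd9 (-0.48), each a substrate adaptor or BTB protein. The other of the lower ones was Klhl3, whose mean lay under the receptor level, so no difference is read from it. Of 19 genes that make, use or regulate acetyl-CoA and NAD, the cosubstrates of acetyltransferases and sirtuins, 1 was lower, the NAD-forming enzyme Nmnat2 (-0.49), while the citrate carrier Slc25a1 (-0.40), Pdha1 (-0.28) and Acss1 (-0.32) did not reach that level. The list medians lay between -0.07 and 0.04, beside -0.003 for all rows and 0.009 for the members. The cell cycle list had a median of 0.57, with 4 of 33 genes (Aurka, E2f1, Tyms and Kif11, from 0.47 to 1.44) at an unadjusted p under 0.05 and 0 passing limma over all rows.

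**Figure D4:**
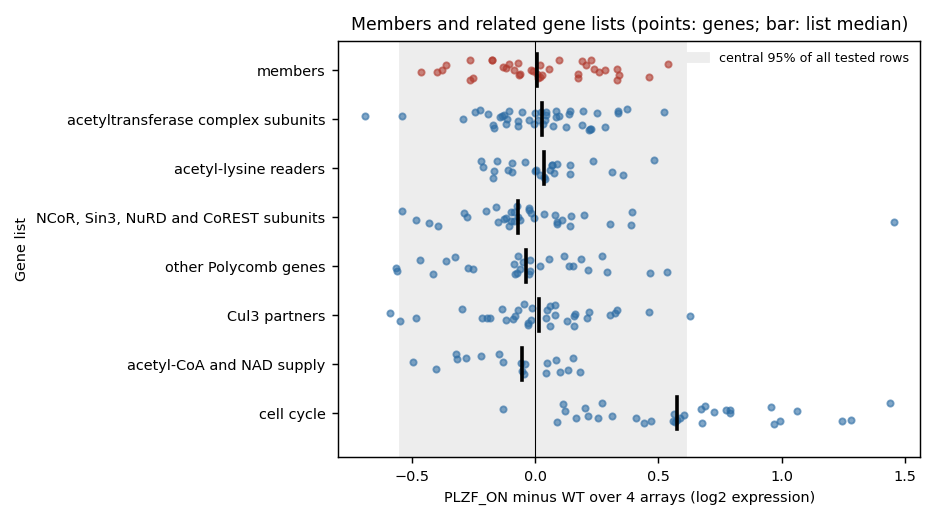
Difference between PLZF_ON and WT over 4 arrays (x axis, log2 units) for the members and 7 gene lists (y axis), with a point per gene, the list median as a bar and the central 95% of all tested rows shaded, from -0.55 to 0.61. All 38 members lie inside the shaded range, Sap30 lies at 1.45, and the cell cycle list has its median at 0.57.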

How the data were processed

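Expression was measured on 6 arrays. The deposited values are log2 expression per array feature, made by the authors with RMA per the submitters' processing notes, which name no version or annotation. RMA corrects background, equalises distributions and summarises probes, which compresses differences of dim genes. The values were used as they stand.

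Of 41345 rows, 23521 carried exactly 1 gene symbol in the platform annotation and were tested. PLZF_ON was compared with WT over 4 and over 6 arrays with limma 3.58.1 in R 4.3.3 (genotype as the only term, two-sided), with Benjamini-Hochberg adjustment over those rows. Standard errors and intervals are limma's moderated ones; the number of arrays limits the precision. The receptor level rests on 1400 rows. Summed marker levels are on the unlogged scale.

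Every array's value is given for members with an unadjusted p under 0.05, for members with groups that did not overlap, and for Ep300, Hdac3, Hdac7, Ezh2, Bmi1 and Cul3, and differences for up to 4 genes of smallest p from each related list. The members and lists were chosen with earlier results of these data known. The fit was tested on simulated data. Other settings tried were a replicate block, leaving out each array, renewed quantile normalization, median centring, brighter rows, all deposited rows, a variance trend, array weights, gene means over rows, and members above the receptor level. Figures were drawn with matplotlib 3.10.9.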

Additional observations from a re-analysis of the deposited data

How the results depend on the processing

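No named member passed limma over all rows under any alternative; of 286 values for 11 members in the 2 comparisons, 282 kept their direction and 4 turned. That count is no measure of stability. The replicate block, brighter rows, all deposited rows, the variance trend and gene means over rows could not change the differences of these members. Most of the 11 were also chosen for a small p or for groups that did not overlap in these data. Of all 38 measured members, 10 were higher over 4 arrays and lower over 6. The smallest limma adjusted p was that of Rcor1 with array weights over 6 arrays (0.114). The count of members passing stayed at 0 throughout. With each array left out in turn, Ep300 over 4 arrays ranged from -0.11 to 0.079 (0.04 without WT replicate 1) and Hdac3 over 6 arrays from -0.46 to 0.35, the latter without PLZF_ON replicate 3; with array weights Hdac3 was 0.28. Members with an unadjusted p under 0.05 numbered 2 to 4 over 4 arrays and 1 to 6 over 6 arrays when an array was left out, and 5 with array weights over 6. The median member difference moved by less than the spread between arrays in each alternative. Over 6 arrays that spread, 0.24, included PLZF_ON replicate 3 itself, so a turn of sign could count as no move. The median went from -0.14 to 0.05 without that array and to 0.01 with array weights. Over 4 arrays the spread was 0.065, and the median went from 0.009 to 0.073 without PLZF_ON replicate 1.

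Of all tested rows 40 passed over 4 arrays and 22 over 6. With an array left out these counts ran from 0 (without PLZF_ON replicate 2; 1803 rows with an unadjusted limma p under 0.05) to 106, and from 0 (without WT replicate 1, WT replicate 2 or PLZF_ON replicate 2; 852, 960 and 1531 rows) to 107. With all deposited rows tested together both were 0 (limma; 3042 and 2100 rows with an unadjusted p under 0.05). Over 6 arrays median centring gave 5 and array weights 259. The replicate block gave 101 over 4 arrays. The labels give no pairing, deviations of arrays with the same number correlated at 0.09, 0.25 and 0.24, and not every array correlated best with its own number, so the block is given here only. The causes of these shifts were not tested. The arrays give no signal over background for single values, so dim members such as Hdac9 carry no usable difference.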
